A study of Sus scrofa with 6 samples.

Results

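The miR-181 family was taken as the entries of the deposited small RNA table whose names are miR-181a, miR-181b, miR-181c or miR-181d, with or without an arm. This gave 5 entries (miR-181a, miR-181b, miR-181c, miR-181d-5p and miR-181d-3p) out of 1645, of which 358 are known pig microRNAs (miRNAs) and the rest are predicted. The libraries come from immature Sertoli cells of pig testes at 80 to 90 days of gestation, cultured in medium with 10% serum. After 6 h of culture, 3 samples were left without treatment (control) and 3 received 250 µM AA2P, the sesquimagnesium salt hydrate of L-ascorbic acid 2-phosphate, a stable derivative of vitamin C. No genetic change is named for either group, and how long the treatment lasted is not stated. The labels do not say whether the samples of a group came from separate animals or cultures, so the p-values rest on a spread between samples that may be no more than technical.

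A miRNA is a short RNA cut from a hairpin precursor, and it represses transcripts that pair with its seed, the bases near its 5′ end. The members of the miR-181 family share their seed and so are thought to overlap in their targets, among them transcripts of BCL2 and MCL1, which protect cells from apoptosis, and of HSPA5, a chaperone of the endoplasmic reticulum. The family is best known from lymphocytes, where miR-181a sets the sensitivity of the T cell receptor, and from the vascular wall, where miR-181b restrains NF-κB signalling.

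In the RefSeq gene table of the assembly Sscrofa11.1 the family has 6 hairpins in 3 neighbouring pairs. MIR181A-1 and MIR181B-1 lie next to each other beside PTPRC, the gene of the leukocyte antigen CD45. MIR181A-2 and MIR181B-2 lie within the span of NR6A1, a gene of an orphan nuclear receptor known from germ cells, and NR5A1, the gene of the gonadal nuclear receptor SF-1, is close by. MIR181C and MIR181D are neighbours, and the hairpins of miR-23a, miR-27a and miR-24 follow them. The mature miR-181a and miR-181b can each come from 2 hairpins, and their entries do not say which, while miR-181c and miR-181d have 1 hairpin each. The assignment of reads that match more than 1 of these similar miRNAs is not described in the sources used here, and the split between members is therefore less sure than the family sum.

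Values are TPM, reads per library scaled to a common sum, with no length term, and levels of different miRNAs are set side by side as reads. How evenly the library preparation captured different miRNAs is not known here. Ranks, orders and ratios of level between members within a group are therefore those of reads. The step between low values puts the depth at 25.8 to 36.0 Mreads (M for mega), and 3 reads, the limit that a count of 0 allows, equal 0.0834 to 0.116 TPM. The table holds miRNAs only, so the label of the cells could not be checked against transcripts that define Sertoli cells. Marker miRNAs of other cells were present at levels from near 0 to above those of single miR-181 members: the summed TPM of 3 red cell miRNAs was 3.97 to 4.72 in controls and 2.23 to 3.98 with AA2P, and that of 2 endothelial ones 98.4 to 112 and 86.8 to 111. Over all libraries 6 muscle and myoid miRNAs summed to 168 to 307 TPM, most of it miR-1, and 4 white blood cell miRNAs summed to 0.860 to 10.3 TPM. miR-34c, from the list for germ cells but not taken as specific to them, stood at 169 to 283 TPM.

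The miR-181 family was of middling abundance in these cells, and it was led by miR-181d-5p in controls and by miR-181b after AA2P. By their mean over the 6 libraries miR-181b, miR-181d-5p and miR-181a ranked 130, 131 and 133 among the 358 known miRNAs. miR-181c ranked 246 and miR-181d-3p 330. Together the members made up 0.0265% ± 0.00272 (SD, n = 3) of a control library and 0.0424% ± 0.00326 (SD, n = 3) of an AA2P library. The summed level was 286.5, 234 and 274 TPM in control libraries 1, 2 and 3 and 426, 455 and 390.3 TPM in AA2P libraries 1, 2 and 3. The sum was thus higher in every AA2P library than in any control library, and the ratio of the group means was 1.60 (0.68 on the log2 scale). Under 4 other scalings of the libraries that log2 ratio was 0.38 to 0.48. This is a description, with no test of the sum.

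miR-181b is made beside miR-181a in both of their hairpin pairs, and it had the largest difference in the family. It stood at 83.6, 68.4 and 82.8 TPM in the control libraries (about 2157, 2204 and 2510 reads) and at 169.6, 186 and 149 TPM in the AA2P libraries (about 4558, 6683 and 4845 reads). The lowest AA2P library was 1.79-fold above the highest control library. The means were 78.2 ± 8.55 and 168 ± 18.3 TPM (SD, n = 3 per group), a ratio of 2.15. On the log2(TPM + 1) scale miR-181b rose by 1.09 (SE 0.124; limma, adjusted p = 0.00315).

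miR-181a, the member studied most in T cells, rose as well. It stood at 83.6, 66.9 and 77.4 TPM in the control libraries and at 129.3, 130.1 and 119.5 TPM in the AA2P libraries. The AA2P libraries lay close together, with a coefficient of variation of 4.64%, and the lowest was 1.43-fold above the highest control library. The means were 76.0 ± 8.46 and 126 ± 5.86 TPM (SD, n = 3 per group), 1.66-fold apart, and the log2 difference was 0.73 (SE 0.105; limma, adjusted p = 0.00519). Under other scalings of the libraries this difference was 0.44 to 0.56 and still passed (limma, adjusted p = 0.00745 to 0.0242).

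miR-181d-5p did not pass the test, although it was the most abundant member in controls. It stood at 117.6, 97.3 and 112 TPM in the control libraries and at 124.6, 137 and 119.4 TPM in the AA2P libraries. The groups were apart only narrowly, the lowest AA2P value being 1.02 times the highest control value. The means were 109 ± 10.5 and 127 ± 8.88 TPM (SD, n = 3 per group), a ratio of 1.16, and the log2 difference was 0.22 (95% interval -0.035 to 0.47; limma, adjusted p = 0.167). That difference is near the median of all 433 tested entries, 0.25, and it turned to between -0.07 and -0.05 under 4 of 5 other scalings.

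miR-181c, which shares its locus with miR-181d, was hardly present. It stood at 1.70, 1.89 and 1.88 TPM in the control libraries, which rests on 44 to 61 reads, and at 2.87, 2.78 and 2.09 TPM in the AA2P libraries, which rests on 68 to 100 reads. The groups did not overlap, but the AA2P libraries spread with a coefficient of variation of 16.5%. The means were 1.82 ± 0.107 and 2.58 ± 0.427 TPM (SD, n = 3 per group), a ratio of 1.41. The log2 difference of 0.34 did not pass (95% interval -0.091 to 0.76; limma, adjusted p = 0.200), and it was 0.13 to 0.20 under the other scalings. The controls held 42.9 times as much miR-181b as miR-181c, and the AA2P libraries 65.2 times as much.

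miR-181d-3p, the opposite arm of the miR-181d hairpin, was listed at 0.04, 0.03 and 0 TPM in the control libraries and at 0, 0 and 0.09 TPM in the AA2P libraries. These are 0 to 3 reads per library, so it did not enter the fit and no difference was detectable at this depth. Over the 6 libraries the 3p arm had about 5 reads against 21724 of the 5p arm, a share of 0.0230% (95% exact Clopper-Pearson interval 0.00747 to 0.0537%, counting error only). The log2 ratio of the arms with 1 TPM added to each went from 6.74 ± 0.146 to 6.95 ± 0.160 (SD, n = 3 per group), a difference of 0.21 that overlapped between groups (two-sided exact permutation p = 0.3) and that the 5p arm alone sets.

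**Figure D1:**
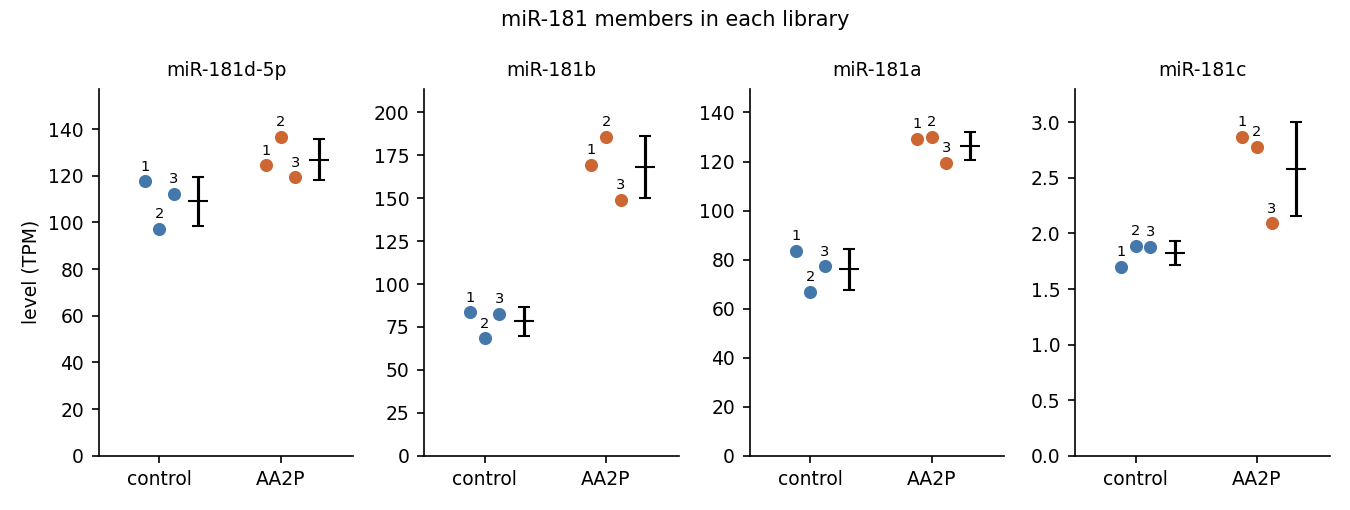
Level in TPM of the 4 miR-181 members that were tested, 1 panel and 1 linear axis from 0 for each; points are libraries, numbered by replicate, and bars are the mean ± SD of 3. miR-181b and miR-181a are well apart between groups (lowest AA2P value 1.79 and 1.43 times the highest control value), while miR-181d-5p is apart by 1.02 times only.

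Of the 5 members, 4 passed the filter of at least 1 TPM in at least 3 libraries and were tested, and 2 of these were called higher with AA2P. Of all 433 tested entries, 24.7% were called at an adjusted p under 0.05 and 19.9% were called higher. The groups did not overlap, with AA2P higher, for all 4 tested members, but the same held for 40.4% of the tested entries. With trimmed-mean scaling the groups stayed apart for miR-181a and miR-181b only, beside 19.2% of the entries, and with median-of-ratios scaling likewise, beside 20.1%. As deposited, 86 entries were called higher and 21 lower, which became 47 and 50 with trimmed-mean scaling, 48 and 50 with median-of-ratios scaling, 44 and 40 with quantile normalization, 39 and 43 with totals without miR-21-5p, and 55 and 36 with totals without the 10 most abundant miRNAs. The median log2 difference of all entries was then -0.01, 0.01, 0.02, -0.01 and 0.07.

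Read against that median, 2 members stood above it and 2 near it. The log2 difference of miR-181b lay 0.85 above the median as deposited and 0.81 to 0.84 above it under the 5 other scalings. That of miR-181a lay 0.48 above it as deposited and 0.45 to 0.54 above it under the others. miR-181c lay 0.09 above and miR-181d-5p 0.03 below the median as deposited. For miR-181c this depends on the added TPM: its distance from the median was 0.19 with 0.1 TPM added and -0.02 with 5 TPM added. In the order of log2 differences over the 433 entries miR-181b was at place 32, miR-181a at 63, miR-181c at 166 and miR-181d-5p at 239.

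**Figure D2:**
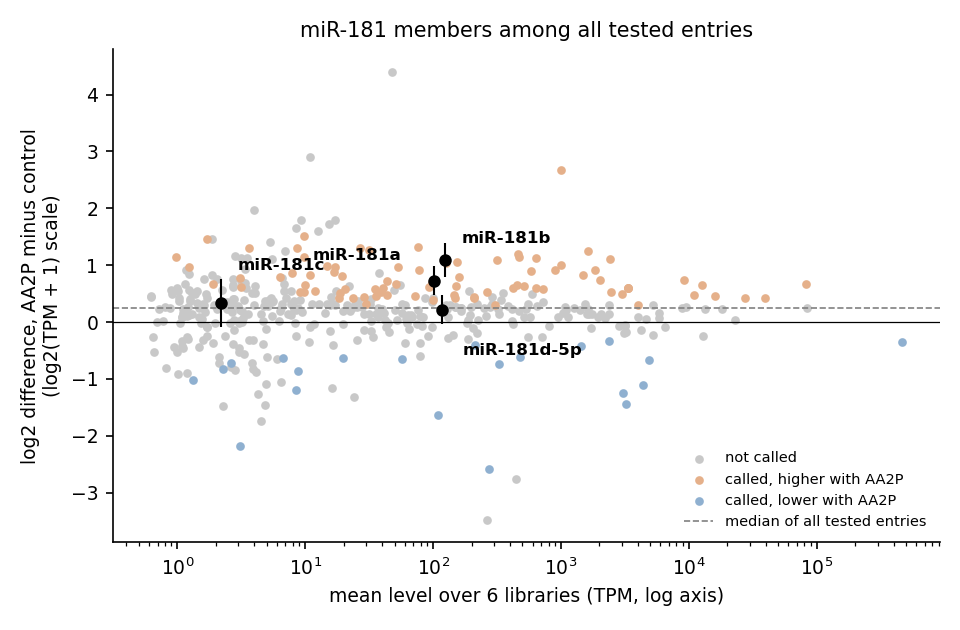
Log2 difference between AA2P and control on the log2(TPM + 1) scale against the mean TPM over 6 libraries (log axis) for the 433 tested entries; black points are the miR-181 members with 95% intervals from limma, and the dashed line is the median of all entries, 0.25. miR-181b and miR-181a sit above the line and miR-181d-5p on it at about the same abundance, with miR-181c among the low entries.

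**Figure D3:**
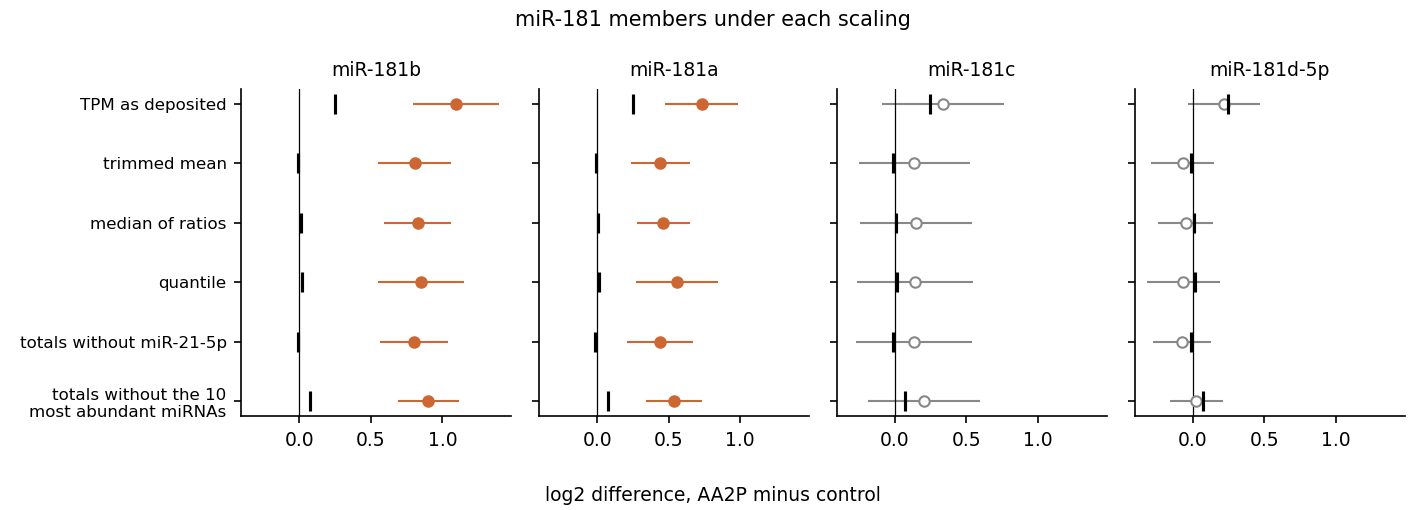
Log2 difference of each tested member as deposited and under 5 other scalings, with 95% intervals from limma; filled points passed an adjusted p of 0.05, and the black tick is the median of all tested entries under that scaling. miR-181b and miR-181a are filled in every row, and the open points of miR-181d-5p move with the median.

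Ratios between members of 1 library stay the same when all its values are multiplied by 1 factor, which quantile normalization does not do. As reads, the members differed unequally between the groups. The planned test of this could not pass (below), and the split of reads between similar members is unsure. miR-181b and miR-181a were almost equal in controls, with ratios of 0.999, 1.02 and 1.07 in libraries 1, 2 and 3, while the AA2P libraries had 1.31, 1.43 and 1.25. miR-181b was below miR-181d-5p in every control library (ratios 0.711, 0.703 and 0.736) and above it in every AA2P library (1.36, 1.36 and 1.25). miR-181a was below miR-181d-5p in controls (0.711, 0.688 and 0.688) and level with it after AA2P (1.04, 0.952 and 1.00).

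With 1 TPM added to each value, the log2 ratios of the 2 groups did not overlap for 5 of the 6 pairs of tested members. For miR-181a to miR-181c this rests on the added TPM: its plain ratios overlapped (49.2, 35.4 and 41.2 in controls, 45.0, 46.8 and 57.2 with AA2P), and with 0.1 TPM added the two-sided exact permutation p was 0.3. The pairs share members and so are not independent. How often the ratio of any entry to a member sets the groups apart was not computed. By level as deposited, 175 of the 433 tested entries were apart with AA2P higher and 40 with AA2P lower. The log2 ratio was higher with AA2P by 0.88 for miR-181b to miR-181d-5p, from -0.48 ± 0.0345 to 0.40 ± 0.0702 (SD, n = 3 per group), by 0.51 for miR-181a to miR-181d-5p, and by 0.36 for miR-181b to miR-181a. Each of the 5 had a two-sided exact permutation p of 0.1, the smallest that 3 against 3 libraries allow, and 0.12 after Benjamini-Hochberg adjustment over the 6 pairs, so none could pass. In limma fits over all entries taken relative to 1 member, a choice made after the data were seen, miR-181b differed from miR-181d-5p (adjusted p = 0.00128) and so did miR-181a (adjusted p = 0.00725), where 15.0% of the entries were called. miR-181b differed from miR-181a (adjusted p = 0.0134), where 46.5% were called. It differed from miR-181c as well (log2 difference 0.76; limma, adjusted p = 0.0180), where 13.4% were called, and miR-181a to miR-181c did not pass (0.39; limma, adjusted p = 0.120). The pair from 1 locus, miR-181c to miR-181d-5p, overlapped between groups, with a difference of 0.12 (two-sided exact permutation p = 0.4).

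**Figure D4:**
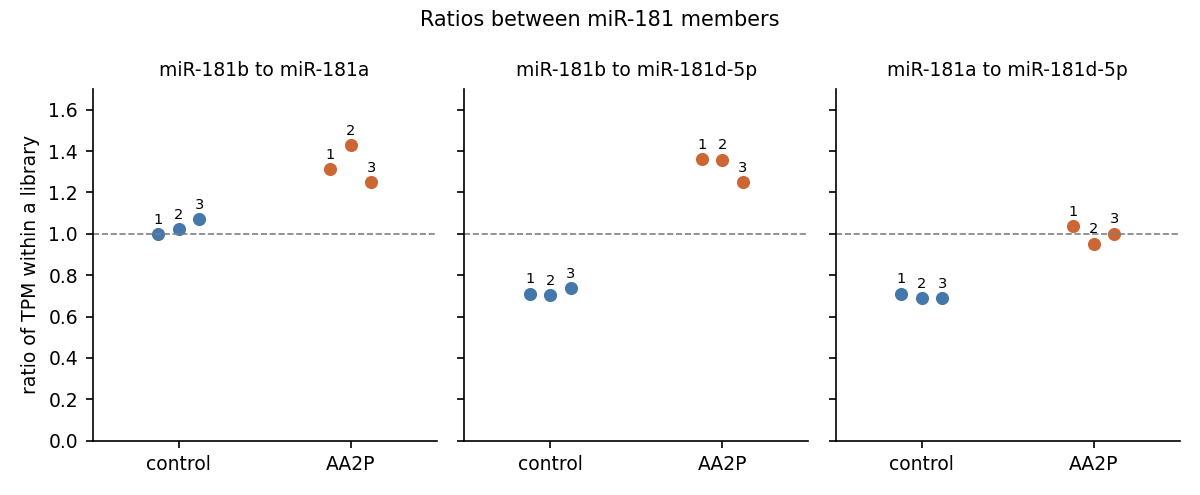
Ratio of the TPM of 2 miR-181 members within each library (linear axis from 0); points are libraries, numbered by replicate, and the dashed line is equality. The ratio of miR-181b to miR-181a goes from 0.999 to 1.07 in controls to 1.25 to 1.43 with AA2P, and miR-181b changes from below to above miR-181d-5p.

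The makeup of the family changed accordingly. miR-181d-5p made up 41.2% ± 0.289 of the family sum in controls and, after AA2P, 29.9% ± 0.686, which is -11.2 percentage points. miR-181b went from 29.5% ± 0.576 to 39.6% ± 1.30, a gain of 10.1 points. The share of miR-181a was 28.6% ± 0.504 and 29.8% ± 1.11, and the libraries of the groups overlapped (28.2 to 29.2% and 28.6 to 30.6%). miR-181c stayed under 1% of the family. The order of levels in controls was miR-181d-5p, then miR-181b and miR-181a, which did not differ beyond their spread, then miR-181c. With AA2P it was miR-181b, then miR-181d-5p and miR-181a, which did not differ beyond their spread, then miR-181c.

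**Figure D5:**
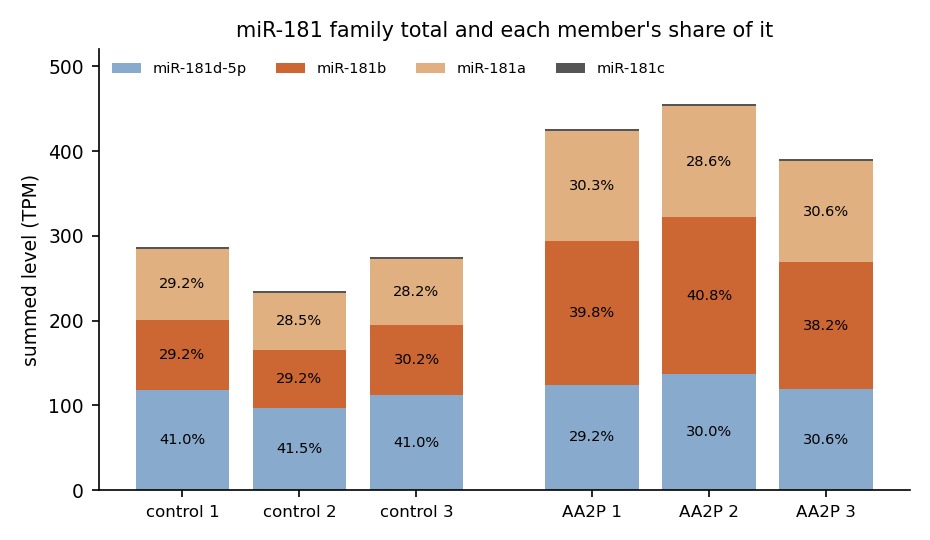
Summed TPM of the miR-181 family in each library (bars from 0), split by member, with the percentage of the family that each of the 3 abundant members holds. The bars are taller with AA2P (390.3 to 455 TPM against 234 to 286.5 TPM), and the miR-181d-5p segment keeps nearly its height while its share falls from 41.2% to 29.9% on average.

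Of the 4 measured miRNAs whose hairpins follow MIR181D and MIR181C in the gene table, chosen after the values were seen, 1 was called, as lower with AA2P. That count is close to the share of all 433 tested entries that were called, 24.7% (86 higher and 21 lower). miR-23a fell from 2665 ± 80.7 to 2118 ± 105 TPM (SD, n = 3 per group; log2 difference -0.33; limma, adjusted p = 0.0156), and it stayed called lower under the 5 other scalings. miR-27a was at 5697 ± 138 and 4871 ± 405 TPM (limma, adjusted p = 0.0789), and miR-24-3p, which a second locus also makes, was at 3427 ± 184 and 3031 ± 362 TPM (limma, adjusted p = 0.226). Both were called lower under 4 of the 5 other scalings, under which 36 to 50 of all entries were called lower, against 21 as deposited. miR-24-1-5p, the other arm of the miR-24 hairpin at this locus, was at 186 ± 12.9 and 184 ± 18.2 TPM (log2 difference -0.02; limma, adjusted p = 0.897) and was called lower under 1 of the 5.

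The known miRNAs that varied most like the summed family over the 6 libraries were let-7c (Pearson r 0.997), miR-450c-3p (0.994), miR-425-5p (0.993), miR-107 (0.993) and miR-30e-5p (0.992), out of 201 with a mean of at least 10 TPM. These correlations are descriptive: the 6 points fall into the 2 groups and share library totals. let-7c went from 1998 ± 189 to 2893 ± 229 TPM and miR-30e-5p from 1270 ± 128 to 2407 ± 387 TPM. Among the members, miR-181a and miR-181b had an r of 0.992, and miR-181c and miR-181d-5p one of 0.693. In the order of log2 differences among 204 known miRNAs of at least 10 TPM, miR-181b (place 9) stood between miR-99a-5p and miR-32 (1.10 each) above and miR-429 (1.05) and miR-450c-5p (1.00) below. miR-181a (place 20) stood between miR-200b (0.74) and miR-30c-5p (0.74) above and miR-424-3p (0.73) and miR-30a-5p (0.66) below. At a mean of 50 to 200 TPM, a range chosen after the values were seen, 58 other entries were tested with a median log2 difference of 0.23, and 1 of them exceeded miR-181b and 6 exceeded miR-181a.

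Other miRNAs with some of the same known targets were called in both directions. Of 10 further miRNAs that repress BCL2 or MCL1, 1 was called higher and 2 lower, where 24.7% of all tested entries were called and 19.9% called higher, with a median log2 difference of 0.31 beside 0.25 over all entries. miR-29a-3p, a repressor of MCL1, fell from 1639 ± 159 to 1224 ± 23.2 TPM (SD, n = 3 per group), and miR-29b fell too, both also under the 5 other scalings, 4 of which called miR-29c lower as well. miR-34c was called higher as deposited and under none of the 5 other scalings. miR-16 stood at 634 ± 60.6 and 814 ± 125 TPM and miR-34a at 295 ± 33.8 and 384 ± 32.2 TPM, neither called.

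Vitamin C is a cofactor of the TET enzymes, which oxidise methylcytosine. Of 6 miRNAs known to repress TET transcripts, miR-29a-3p and miR-29b were called lower and miR-22-3p higher, with a median log2 difference of -0.09 beside 0.25 over all entries, of which 24.7% were called. The call of miR-22-3p ended under all 5 other scalings. The abundant miR-26a was at 8064 ± 879 and 9596 ± 1285 TPM and miR-101 at 1663 ± 68.1 and 1855 ± 355 TPM, neither called. The last list held 4 miRNAs tied to NF-κB or other inflammatory signalling, which miR-181b is known to restrain in endothelium. Of these, miR-146a-5p, miR-146b and miR-155-5p were called lower, as they were under all 5 other scalings. miR-9 was called higher, except with totals without miR-21-5p, and the median log2 difference of the 4 was -0.93. All 4 were thus called, beside 24.7% of the 433 tested entries (86 higher and 21 lower). This list, like the others, was chosen with earlier results of these data known, so the count is not read as an enrichment.

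Of 4 white blood cell markers, miR-142-3p and miR-142-5p moved in the same direction as miR-181a and miR-181b, at a far lower level. The summed TPM of miR-142-3p, miR-142-5p, miR-223 and miR-150 was 0.860 to 1.18 in the control libraries and 10.3, 2.25 and 2.59 in AA2P libraries 1, 2 and 3. Only miR-142-3p was frequent enough to be tested, and it was called higher (limma, adjusted p = 0.0293), a call that ended under 2 of the 5 other scalings. miR-150, a miRNA of mature lymphocytes, was at 0 to 0.11 TPM in all libraries. The myeloid miR-223 was at 5.40 TPM in AA2P library 1 but at 0.06 and 0 TPM in AA2P libraries 2 and 3. Without AA2P library 1 the log2 difference was 1.09 for miR-181b and 0.71 for miR-181a (limma, adjusted p = 0.0145 and 0.0232). The AA2P libraries left in that fit also had marker sums above the controls, so it is no test of white blood cells. Fewer or more cells of a type and less or more RNA per cell cannot be told apart in bulk libraries. The 6 muscle and myoid miRNAs summed to 168 to 227 TPM in controls and 219 to 307 TPM with AA2P. None of 4 tested was called as deposited or under the other scalings. The endothelial miR-126-3p was at 101 ± 6.50 and 96.4 ± 12.2 TPM. The red cell miR-486 was at 3.76 ± 0.549 and 2.34 ± 0.710 TPM. Neither was called as deposited. Both were called lower with quantile normalization and with median-of-ratios or trimmed-mean scaling (limma, adjusted p = 0.0228 to 0.0399). They were not called with totals without miR-21-5p or without the 10 most abundant miRNAs, and miR-126-5p was called under no scaling. miR-34c, the measured miRNA of the germ cell list, went from 178 ± 8.01 to 242 ± 36.3 TPM. It is also on the list of BCL2 or MCL1 repressors, so its level is not read as germ cell content. The part of any of these cells in the levels of the miR-181 members was not tested.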

How the data were processed

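The authors deposited 1 table of TPM for 6 small RNA libraries (3 control, 3 AA2P). The submitters' processing notes name Bowtie without its version or role; genome build and miRNA annotation: not given in the sources used here. Every column has the same sum within rounding, and depth was read from the step between values under 1.5 TPM. No count test was run. Reads given here are estimates, the TPM multiplied by that depth and rounded. The 433 entries that reached 1 TPM in 3 or more libraries were transformed as log2(TPM + 1), which understates differences of low entries, and compared by limma 3.58.1 (R 4.3.3) with a mean-variance trend, two-sided, with Benjamini-Hochberg adjustment over all 433 and calls under 0.05. Fold values are ratios of mean TPM. Ratios between members were compared by two-sided exact permutation tests.

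The fit was tested on simulated data. Members, lists and tests were chosen with earlier results of these data known. The miRNAs named were all members, fixed lists (up to 3 by highest mean TPM, and called ones where a count was 5 or fewer), the 5 most like the summed family, the 2 on each side of each called member in the order of differences, neighbours of the hairpins (chosen afterwards), and cell type markers; miR-449a, also on the germ cell list, was not matched. A name without an arm stood for the main arm. RefSeq (Sscrofa11.1) matched 6 hairpins and served for names and neighbours only.

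Alternatives were 2 pseudocounts, 2 filters, known miRNAs only, 5 scalings, no trend, a replicate block and leaving out each library.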

Additional observations from a re-analysis of the deposited data

How the results depend on the processing

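miR-181b and miR-181a kept their direction and their call under all 18 alternatives (log2 difference 0.80 to 1.18 and 0.44 to 0.80), and 2 members were called in each. The share of all entries called in these alternatives ran from 3.47% with no filter on low values to 42.8% with known miRNAs only. miR-181c (0.13 to 0.47, 17 alternatives, since a mean of 10 TPM left it out) and miR-181d-5p passed in none. The difference of miR-181d-5p was -0.071 with trimmed-mean scaling, -0.050 with median-of-ratios scaling, -0.065 with quantile normalization and -0.075 with totals without miR-21-5p. The log2 ratio of the summed family was 0.68 as deposited and 0.39, 0.41, 0.38 and 0.48 with trimmed-mean scaling, median-of-ratios scaling, totals without miR-21-5p and totals without the 10 most abundant miRNAs. The 107 calls over all entries became 57 with no filter on low values, where 1645 entries were tested, and 63 to 97 when 1 library was left out, the lowest without control replicate 3; the cause of the latter was not tested. For ratios between members, limma relative to 1 member, added after seeing the data, called miR-181b to miR-181a (0.36), miR-181b to miR-181c (0.76), miR-181b to miR-181d-5p (0.88) and miR-181a to miR-181d-5p (0.51), which the exact test cannot do at this size. With a pseudocount of 5 TPM the ratio of miR-181c to miR-181d-5p went to -0.061. At 44 to 100 reads per library, miR-181c is limited by depth.

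With the replicate number as a block, 63 entries were called (52 higher and 11 lower), with miR-181a (adjusted p = 0.0245) and miR-181b (adjusted p = 0.0184) among them. Libraries of the same number deviated together with correlations of 0.29, 0.06 and 0.18, not all over 0.1, while 5 of 6 libraries correlated best with their own number; the labels do not say whether a number marks a pair, so the fit without the block was kept.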
